A study of Mus musculus with 24 samples.

Results

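The mitochondrial solute carriers of the SLC25 family were examined in MIN6 β-cells with and without verapamil. Members were chosen by gene symbol alone, as Slc25a with a number, Ucp1 to Ucp3, Mpc1, Mpc2, Mtch1 or Mtch2, a rule that uses no measured value, although the family was picked with earlier results of these data known. Of 54 symbols in the GENCODE M21 annotation that meet this rule, 37 stood in the count table of 12310 genes that was used, and the other 17 were not analysed here. All 37 passed the filter on low counts and were tested together with 12306 genes in all. Mpc1 and Mpc2, the subunits of the pyruvate carrier, are not SLC25 proteins and were taken in for their role.

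MIN6 is an insulin-secreting line from a mouse insulinoma, here with the WT genotype and at passages below 25. Of the 24 RNA-seq libraries, 12 came from cells given 50 µM verapamil for 24 h and 12 from untreated cells (control), all in medium with 5.6 mM glucose. Verapamil blocks L-type calcium channels. The methods describe 4 sets of independent experiments with 3 replicates each, whereas the deposited design text counts 12 independent experiments, so p-values over the 12 libraries of a group may in part rest on technical spread. Sets were assigned from the leading digit of each library's description label; no source states that this digit marks the set. An established tumour line grown alone is a limited model of β-cells in an islet.

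Total counts per library ran from 12590476 to 32360171 in control and from 21840159 to 44806556 in verapamil. All 8 β-cell markers looked for were in the table. In medians of CPM (read counts scaled to library size, with TMM factors), Ins2 had 1300 in control and 596 in verapamil, Ins1 469 and 392.2, Slc2a2 164 and 99.9, Slc30a8 486 and 269, Iapp 2.08 and 1.18, Pdx1 84.5 and 77.5, Nkx6-1 62.4 and 62.2, and Mafa 682 and 1287. Gcg, the glucagon gene, was present at a median of 185 CPM in control and 271 CPM in verapamil, while Sst and Ppy of other islet cells, Cpa1, Cela1 and Krt19 of acinar and ductal cells and Col1a1, Pecam1 and Ptprc of stroma, vessels and leukocytes were not in the table. Their part in the results below was not tested. For 4 columns (C11, C12, V11, V12) the header matches the labels of more than 1 sample, and these libraries entered as replicates of their group in experiment set 4.

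SLC25 carriers are small proteins of the mitochondrial inner membrane that exchange nucleotides, phosphate, carboxylates, amino acids, cofactors and metals between the cytosol and the matrix. In β-cells they stand between glucose metabolism and insulin release: pyruvate enters the matrix through the pyruvate carrier, ATP leaves it through the ADP/ATP carriers, and citrate, malate and aspartate cross for the NADH and NADPH shuttles that accompany secretion. UCP2 lowers the proton-motive force or exports carboxylates, depending on the account, and a few relatives sit in the outer membrane or in peroxisomes.

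Verapamil was accompanied by changes in both directions across the family. By edgeR's quasi-likelihood test with Benjamini-Hochberg adjustment at a threshold of 0.05, 17 of the 37 members were higher, 10 were lower and 10 were not called. Among all genes tested 31.2% were higher and 31.6% were lower, so the share of called members was not far from that of all genes for the lower ones and larger for the higher ones. The median log2 fold change of the members was 0.12, beside -0.00 over all genes, and 64.9% of the members lay above 0, beside 49.7% of all genes. These values hold no adjustment for the trend with transcript composition described below. Members ran from -1.04 (Slc25a36) to 0.79 (Slc25a1) on the log2 scale. The citrate carrier, 1 of the pyrimidine carriers, the mitoferrins and the ADP/ATP carrier Slc25a5 were among the higher members, and the aspartate/glutamate carriers and the orphan carriers were among the lower ones. In bulk libraries, fewer cells with a transcript and less of it per cell cannot be told apart.

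**Figure D1:**
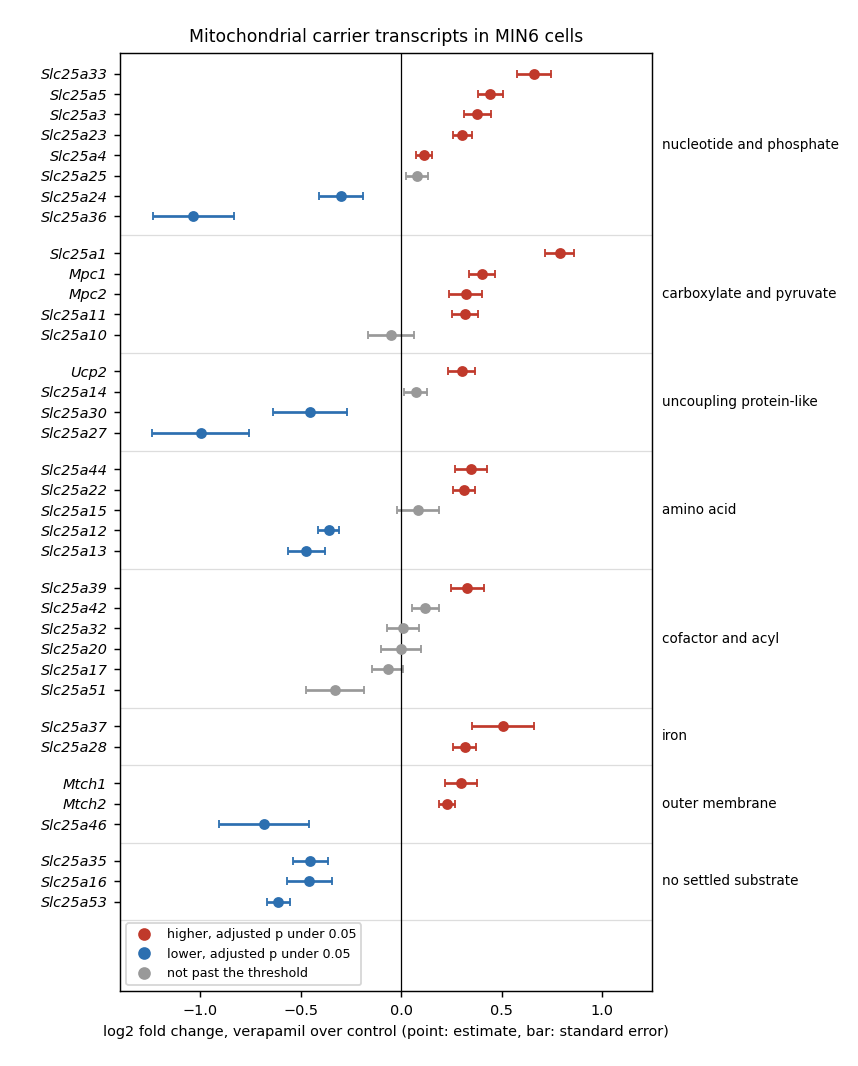
Log2 fold change of 36 carrier transcripts, verapamil over control (x axis; point: estimate, bar: standard error, 12 libraries per group), grouped by role. Red marks 17 members higher at an adjusted p under 0.05, blue 10 lower and grey 9 not called; the 3 members without a settled substrate all lie below 0 and both mitoferrins above it.

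A trend with transcript composition moved with the treatment and touches most values. The log2 difference of a verapamil library from the control mean, taken across genes, correlated with the GC content of the transcript at r = 0.0382 to 0.648, whereas single control libraries gave -0.18 to 0.162. The same difference correlated with log2 transcript length at -0.605 to -0.0345 in verapamil and at -0.129 to 0.125 in control. Across the 37 members the log2 fold change had r = 0.58 with GC content and -0.48 with log2 length, beside 0.50 and -0.38 over 12304 genes; the points share libraries, and these values are descriptions. The higher members had a median GC content of 53.8% and a median length of 1887 bases, and the lower members 44.5% and 3285 bases. Results were therefore also computed after a correction (counts of each library corrected by a spline on GC content and length) and with covariates (the GC and length slopes of each library in the model). The slopes are tied to the treatment, with a variance inflation of 1.98, so the covariates also take up part of it, and the part of the trend in the changes cannot be told apart from that of verapamil.

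After the correction 12 members were higher and 6 were lower, with 28.0% and 28.6% of all genes. With covariates 9 were higher and 6 were lower, with 21.2% and 14.2% of all genes. The median log2 fold change of the members was 0.047 after the correction, beside -0.008 over all genes. With covariates it was 0.034, beside 0.030, so the distance from all genes was smaller in both than without adjustment. Summing the counts per experiment set and group, which leaves 4 sums against 4, gave 16 higher and 7 lower members, with 24.4% and 17.3% of all genes. Calls that ended after the correction were those of Mpc2, Mtch1, Slc25a4, Slc25a11, Slc25a28 and Slc25a39 among the higher members and of Slc25a12, Slc25a16, Slc25a24, Slc25a30 and Slc25a46 among the lower ones. With covariates the calls of Mpc2, Mtch1, Slc25a3, Slc25a4, Slc25a11, Slc25a28, Slc25a39 and Ucp2 ended, and those of Slc25a16, Slc25a24, Slc25a27, Slc25a30, Slc25a36 and Slc25a46. Summed counts ended those of Slc25a4, Slc25a24, Slc25a30 and Slc25a46. In all of these and in a limma voom fit that treats libraries of a set as correlated, 8 members stayed higher, namely Slc25a1, Slc25a5, Slc25a22, Slc25a23, Slc25a33, Slc25a44, Mpc1 and Mtch2, and 3 stayed lower, namely Slc25a13, Slc25a35 and Slc25a53. The share of all genes that kept a call in every one of these fits was not computed, so both counts stand without a background.

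**Figure D2:**
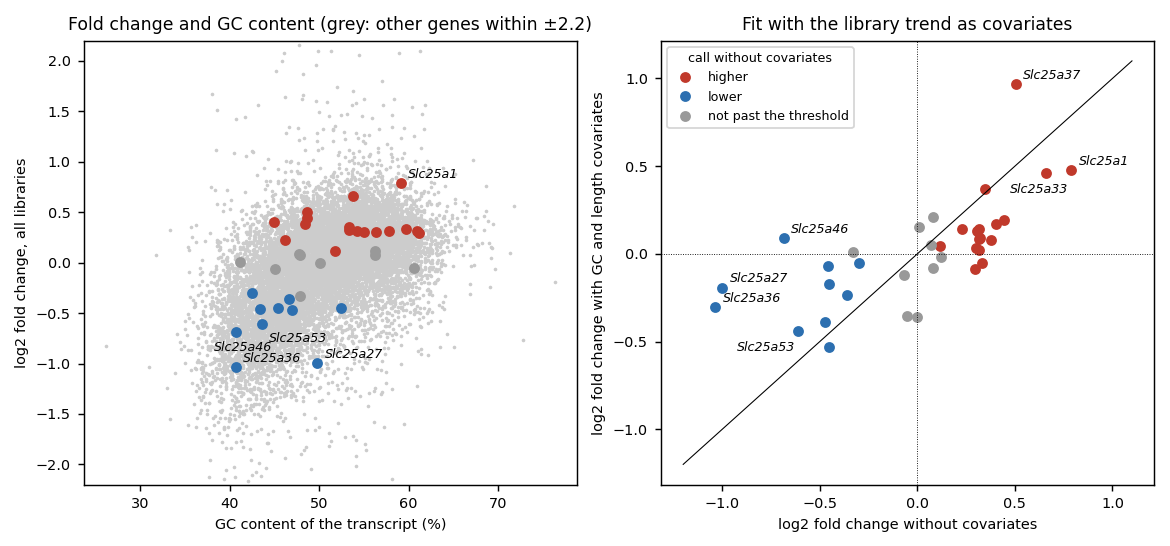
Left, log2 fold change of each gene (y axis) against the GC content of its transcript in percent (x axis), with grey points for genes within the drawn range and coloured points for 36 members; r is 0.58 over all 37 members. Right, log2 fold change with GC and length slopes as covariates (y axis) against that without (x axis), with a line of equality; Slc25a1 stays at 0.48, whereas Slc25a46 moves from -0.68 to 0.09.

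Levels differed by orders of magnitude. Per kb of transcript, Slc25a5 was highest in control with a median of 880 CPM per kb (815 to 964), followed by Slc25a4 with 653 (632 to 714) and Slc25a3 with 439 (398 to 459), and these 3 did not overlap with each other. Mtch2 came next with 174 CPM per kb (165 to 190). At the low end Slc25a30 had 0.241 CPM per kb (0.109 to 0.356). Of 36 neighbouring pairs in the control order, 11 had library ranges that did not overlap, and in the verapamil order 4 of 36, so the order in the middle of the list is within the spread. Ranks 1 to 10 held the same genes in the same order in both groups. Slc25a36 went from rank 22 to rank 27, and Slc25a33 from rank 28 to rank 23.

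**Figure D3:**
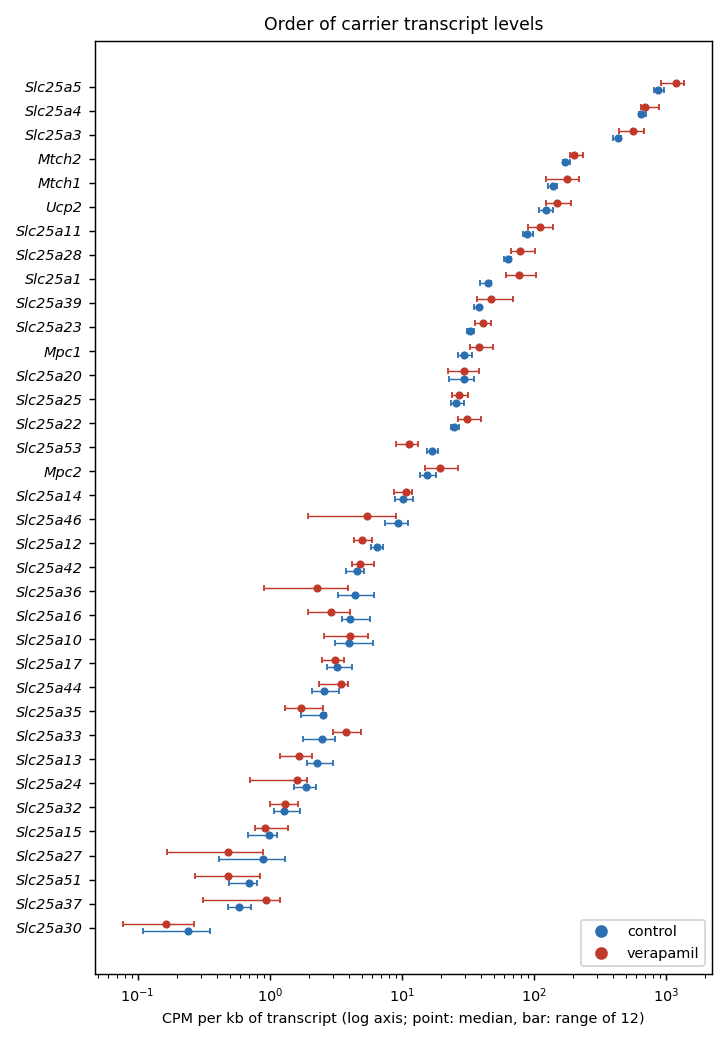
Level of 36 carrier transcripts in CPM per kb (x axis, log scale) in control (blue) and verapamil (red); points are medians and bars the range of 12 libraries. Slc25a5, Slc25a4 and Slc25a3 lead in both groups, and Slc25a30 is last in both.

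Summed over the members, the carriers took 5040 to 5600 CPM in control (median 5292) and 5437 to 7561 CPM in verapamil (median 6379), so the ranges overlapped only at their ends. Slc25a4, Slc25a5 and Slc25a3 together made up a median of 57.6% of that sum in control and 59.1% in verapamil. The 3 orphan carriers went the other way, from a median sum of 59.5 CPM (56.6 to 67.4) to 41.8 CPM (32.6 to 49.3), with no overlap. Control medians were 43.3 CPM for Slc25a53, 12.7 CPM for Slc25a16 and 4.62 CPM for Slc25a35, and only Slc25a53 separated the groups by itself.

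Promoter sequences from the RefSeq table for GRCm38.p6 were available for 29 of the 37 members, and the 250 bases before the start were searched on both strands. The E-box CACGTG, a site that MYC, USF and ChREBP-type factors can bind, was found in 6 of 29 members (20.7%), in 10.3% of the promoters of genes in the count table and in 6.86% of all promoters. CCAAT, the core of NF-Y sites, was found in 55.2% of the members, 40.6% of the genes in the table and 37.5% of all promoters. TCACNCCAC, a sterol regulatory element, stood in Mtch2 and Ucp2 only (6.9%, beside 1.26% and 1.22%), GCGCATGC (NRF1) in Mtch2 only (3.45%, beside 5.42% and 2.56%) and AAGGTCA (ERR) in Mtch2 only (3.45%, beside 3.14% and 4.7%). TGATGNAA, a form of the ATF4 element, was in none of the 29 windows, beside 2.23% of the genes in the table and 3.91% of all promoters. A match is a description of the letters and no evidence of binding. Of the 6 members with an E-box, Slc25a14 and Slc25a15 were not called, Slc25a1 and Slc25a33 were higher and Slc25a36 and Slc25a13 were lower, and the last 4 are printed to show that the same letters occur on both sides. Capitals mark matches to CACGTG and to CCAAT or its reverse complement; all 4 windows hold both.

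They are read 5′ to 3′ along the minus strand at chr16:17928220-17928469 (Slc25a1), chr4:149774268-149774517 (Slc25a33), chr9:97111158-97111291 (Slc25a36) and chr6:6217174-6217423 (Slc25a13). The last 10 bases for Slc25a33, which hold its whole E-box match, lie within the gene in GENCODE M21 and not before its start. The window of Slc25a36 was shortened to 134 bases because GENCODE starts that gene further upstream.
Slc25a1: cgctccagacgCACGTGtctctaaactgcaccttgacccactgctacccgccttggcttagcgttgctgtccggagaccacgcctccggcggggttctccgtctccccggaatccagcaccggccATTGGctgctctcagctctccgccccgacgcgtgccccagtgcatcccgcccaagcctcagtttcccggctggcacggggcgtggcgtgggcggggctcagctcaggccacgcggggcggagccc
Slc25a33: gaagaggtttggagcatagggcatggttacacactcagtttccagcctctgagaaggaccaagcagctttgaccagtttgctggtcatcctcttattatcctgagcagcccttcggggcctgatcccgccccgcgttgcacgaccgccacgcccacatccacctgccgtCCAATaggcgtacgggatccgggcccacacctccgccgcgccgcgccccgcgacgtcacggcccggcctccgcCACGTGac
Slc25a36: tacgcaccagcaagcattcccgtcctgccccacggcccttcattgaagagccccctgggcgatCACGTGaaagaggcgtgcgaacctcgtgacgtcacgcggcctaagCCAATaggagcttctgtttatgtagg
Slc25a13: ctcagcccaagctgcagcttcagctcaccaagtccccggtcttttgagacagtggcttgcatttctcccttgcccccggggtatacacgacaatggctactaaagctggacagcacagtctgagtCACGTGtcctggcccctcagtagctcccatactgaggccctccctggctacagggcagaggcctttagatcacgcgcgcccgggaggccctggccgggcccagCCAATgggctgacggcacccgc

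Carriers of nucleotides and phosphate numbered 8, of which 5 were higher, 2 were lower and 1 was not called. The ADP/ATP carriers and the phosphate carrier Slc25a3 supply ATP synthase with its substrates and export its product. Slc25a5 (ANT2; chrX:36795651-36798807) ran from 1011 to 1195 CPM in control (median 1091) and from 1143 to 1716 CPM in verapamil (median 1486). It was 1.36-fold higher (log2 0.44 ± 0.06 SE, edgeR adjusted p = 2.05e-06), and 11 of 12 verapamil libraries lay above every control. Slc25a3 (chr10:91116574-91124059) ran from 642 to 740 CPM (median 707) and from 710 to 1105 CPM (median 914). Its log2 difference was 0.38 ± 0.07 (edgeR adjusted p = 4.58e-05), 10 of the 12 verapamil libraries exceeding all controls, and 0.08 with covariates (edgeR adjusted p = 0.17). Slc25a4 (ANT1; chr8:46206797-46211284), the second isoform, ran from 1216 to 1374 CPM (median 1258) and from 1257 to 1702 CPM (median 1347). The groups overlapped, with 5 verapamil libraries above every control, and the log2 difference was 0.12 ± 0.04 (edgeR adjusted p = 0.0143). Its call was not held by the summed counts (0.12, edgeR adjusted p = 0.0795), and the correction turned it to -0.07 (edgeR adjusted p = 0.105).

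Within a library the balance of both ADP/ATP carriers moved towards Slc25a5. The log2 ratio of Slc25a4 to Slc25a5 counts ran from 0.16 to 0.28 in control and from -0.34 to 0.14 in verapamil, and all 12 verapamil libraries lay below every control. The mean difference was -0.32 (two-sided permutation test, p = 2e-05, the smallest that 100000 resamples can give; 4.67e-05 after adjustment over 7 pairs of related members). After the correction it was -0.40. With 4 sums against 4 it was -0.32, with an exact permutation p of 0.0286, the smallest possible in that design, and 0.0667 after adjustment. The pseudogenes Gm5529 and Gm5560, near-identical to Slc25a5, held 1.77% as many counts as Slc25a5, and adding them left the log2 difference at 0.44.

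Calcium-regulated carriers exchange ATP-Mg for phosphate and so set the adenine nucleotide pool of the matrix. Slc25a23 ran from 105 to 120 CPM in control (median 110) and from 121 to 160 CPM in verapamil (median 138). It was higher by 0.31 ± 0.05 on the log2 scale (edgeR adjusted p = 8.08e-06), and it was 1 of only 3 members for which every verapamil library exceeded every control, as did 4.95% of all genes. Slc25a24 ran from 5.27 to 7.71 CPM (median 6.42) and from 2.43 to 6.63 CPM (median 5.54), a log2 difference of -0.30 ± 0.11 (edgeR adjusted p = 0.0214) that was not called with summed counts (edgeR adjusted p = 0.0614) or with correlated sets (limma adjusted p = 0.0679). Slc25a25 had medians of 85.2 and 89.4 CPM and was not called (log2 0.08 ± 0.06, edgeR adjusted p = 0.221). The log2 ratio of Slc25a23 to Slc25a24 was 0.64 higher in verapamil (permutation p = 2e-05; 4.67e-05 after adjustment), but the correction left -0.04 (permutation p = 0.826), and Slc25a24 itself went to 0.25 (edgeR adjusted p = 0.13).

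The pyrimidine nucleotide carriers, which import UTP and CTP for mitochondrial RNA and DNA synthesis, moved in opposite directions. Slc25a33 (chr4:149744036-149774277) ran from 3.37 to 5.85 CPM in control (median 4.72; 42 to 166 counts) and from 5.73 to 9.33 CPM in verapamil (median 7.16; 124 to 362 counts). It was 1.58-fold higher (log2 0.66 ± 0.09, edgeR adjusted p = 7.65e-07), and 11 of 12 verapamil libraries exceeded every control. The exons of Slc25a33 share 281 bases with Gm13068 on the opposite strand. Slc25a36 (chr9:97074961-97111157) ran from 17.3 to 32.3 CPM (median 23.3) and from 4.76 to 20.6 CPM (median 11.9), with 10 of 12 verapamil libraries below every control. At 0.488 of the control level (log2 -1.04 ± 0.20, edgeR adjusted p = 1.26e-04) it had the lowest fold change of the 37. Its transcript is long, with 5227 bases, and has 40.7% GC; the correction left -0.38 (edgeR adjusted p = 0.00885) and covariates left -0.30 (edgeR adjusted p = 0.128). The log2 ratio of Slc25a33 to Slc25a36 ran from -2.79 to -1.81 in control and from -1.70 to 0.89 in verapamil, without overlap. The difference was 1.81 (permutation p = 2e-05; 4.67e-05 after adjustment) and 0.82 after the correction. The pseudogene Gm13217 held 16.1% as many counts as Slc25a36, and the sum of both gave a log2 difference of -0.96.

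Carboxylate and pyruvate carriers numbered 5, of which 4 were higher and 1 was not called. Slc25a1 (chr16:17925223-17928219), the citrate carrier that exports citrate for cytosolic acetyl-CoA and lipid synthesis, ran from 65.1 to 79.7 CPM in control (median 75.6) and from 104 to 174 CPM in verapamil (median 128). All 12 verapamil libraries exceeded every control. At 1.73-fold (log2 0.79 ± 0.07, edgeR adjusted p = 2.17e-09) it had the highest fold change of the 37, and the difference was 0.58, 0.84, 0.88 and 0.83 in experiment sets 1 to 4. It was 0.48 both after the correction (edgeR adjusted p = 9.55e-13) and with covariates (edgeR adjusted p = 3.1e-10). These are RNA values: the study that reported the data listed the Slc25a1 protein, by mass spectrometry, as lower with verapamil and its mRNA as higher. Slc25a11 (chr11:70644196-70647479), the oxoglutarate/malate carrier of the malate-aspartate shuttle, ran from 142 to 168 CPM (median 153) and from 154 to 242 CPM (median 193). It was higher by 0.32 ± 0.06 (edgeR adjusted p = 2.28e-04), and by 0.05 after the correction (edgeR adjusted p = 0.16). Slc25a10, the dicarboxylate carrier that exchanges malate or succinate for phosphate, ran from 6.30 to 12.4 CPM (median 8.13) and from 5.27 to 11.3 CPM (median 8.15). It was not called (log2 -0.05 ± 0.12, edgeR adjusted p = 0.712), but the correction gave -0.32 (edgeR adjusted p = 0.00918) and covariates gave -0.36 (edgeR adjusted p = 0.0422).

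The pyruvate carrier is a complex of MPC1 and MPC2, both of which it needs. Mpc1 (chr17:8282904-8297661) ran from 25.5 to 32.9 CPM in control (median 28.5) and from 31.4 to 46.8 CPM in verapamil (median 37.0). It was higher by 0.40 ± 0.06 on the log2 scale (edgeR adjusted p = 1.17e-05), and 10 of the 12 verapamil libraries exceeded all controls. Mpc2 (chr1:165460637-165481214) ran from 14.2 to 18.6 CPM (median 16) and from 15.3 to 27.6 CPM (median 20.1), a log2 difference of 0.32 ± 0.08 (edgeR adjusted p = 0.00177). The log2 ratio of Mpc1 to Mpc2 differed by 0.09 between the groups (permutation p = 0.206), less than its SD of 0.16 among controls. After the correction Mpc2 was at -0.02 (edgeR adjusted p = 0.853), while Mpc1 was at 0.54 (edgeR adjusted p = 4.53e-05), and the ratio differed by 0.53. The pseudogene Mpc1-ps held 109% as many counts as Mpc1, so the counting could have split reads between them. Mpc1-ps itself differed by 0.49, and the sum of both by 0.45 (edgeR adjusted p = 3.44e-07).

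**Figure D4:**
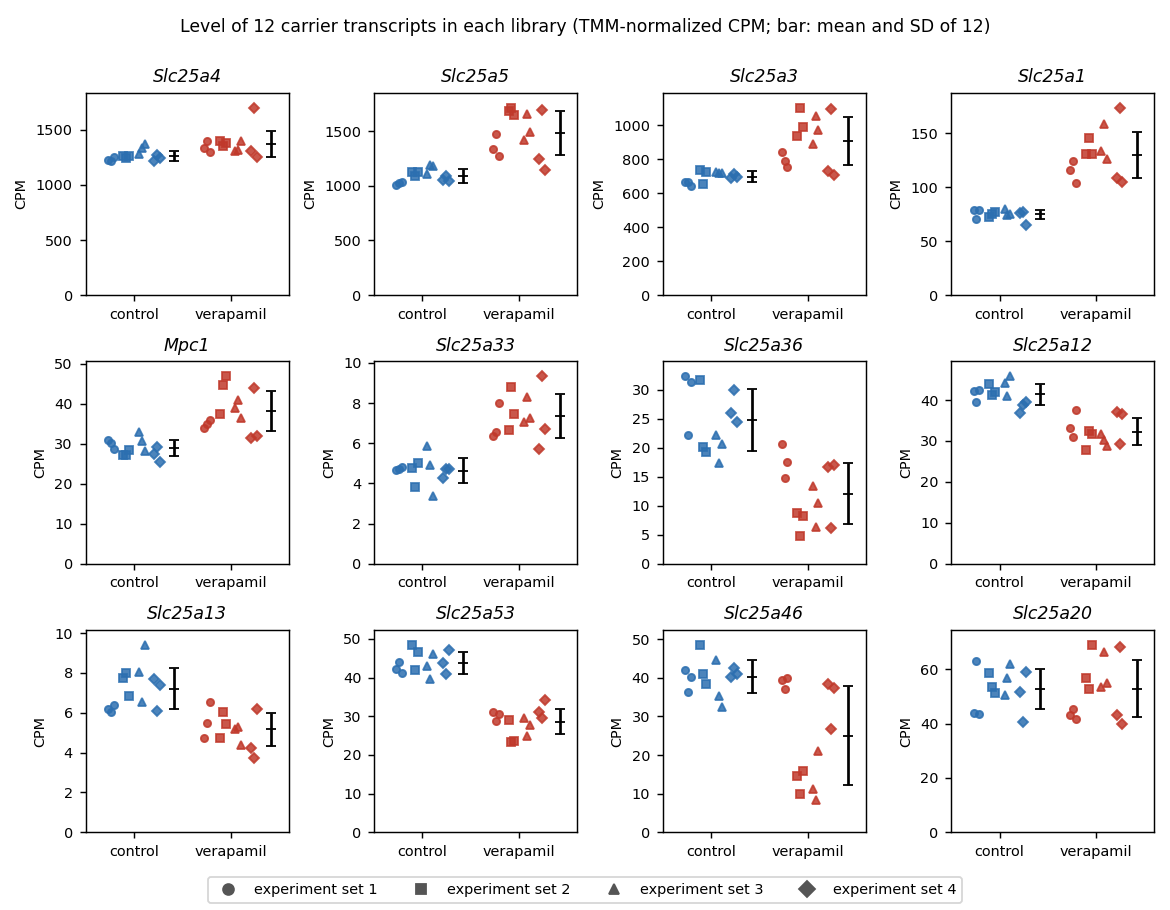
TMM-normalized CPM (y axis, from 0) of 12 carrier transcripts in each library, control in blue and verapamil in red; marker shapes give the experiment set, and the black bar is the mean and SD of 12 libraries. Slc25a1 and Slc25a53 separate the groups completely, Slc25a20 does not, and Slc25a46 is low in verapamil sets 2 and 3.

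Uncoupling protein-like members numbered 4, of which 1 was higher, 2 were lower and 1 was not called; of Ucp1 to Ucp3, only Ucp2 was in the table. Ucp2 (chr7:100493337-100502020), the uncoupling protein known in islets as a brake on glucose-stimulated ATP, ran from 435 to 555 CPM in control (median 495) and from 492 to 766 CPM in verapamil (median 601). It was higher by 0.30 ± 0.07 on the log2 scale (edgeR adjusted p = 4.10e-04), 8 of the 12 verapamil libraries exceeding all controls, and by 0.03 with covariates (edgeR adjusted p = 0.648). Its exons share 305 bases with Dnajb13 on the opposite strand. Slc25a27 (UCP4; chr17:43641891-43667214), a relative best known from neurons, was far rarer, with 1.2 to 3.81 CPM (median 2.56; 15 to 110 counts) and 0.483 to 2.59 CPM (median 1.40; 10 to 92 counts). At 0.50 of the control level (log2 -1.0 ± 0.24, edgeR adjusted p = 0.00115) it was lower in every set, by -2.02 in set 2 and by -0.91 to -0.70 in the others. The correction gave -1.02 (edgeR adjusted p = 5.85e-04) and covariates -0.19 (edgeR adjusted p = 0.554). Slc25a30, with the lowest level of the family, ran from 0.392 to 1.28 CPM (median 0.863; 11 to 37 counts) and from 0.279 to 0.951 CPM (median 0.593; 7 to 42 counts). It was lower by -0.45 ± 0.18 (edgeR adjusted p = 0.0351), a call that ended with summed counts (edgeR adjusted p = 0.0688), with correlated sets (limma adjusted p = 0.163), after the correction (-0.13, edgeR adjusted p = 0.565) and with covariates (-0.17, edgeR adjusted p = 0.641). Slc25a14 was not called, with medians of 18.1 and 19.0 CPM (log2 0.07 ± 0.06, edgeR adjusted p = 0.277).

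Amino acid carriers numbered 5, of which 2 were higher, 2 were lower and 1 was not called. The aspartate/glutamate carriers, the calcium-stimulated arm of the malate-aspartate shuttle, were both lower. Slc25a12 (aralar; chr2:71271063-71367749) ran from 36.9 to 45.8 CPM in control (median 41.5) and from 27.8 to 37.5 CPM in verapamil (median 31.6). It stood at 0.778 of the control level (log2 -0.36 ± 0.05, edgeR adjusted p = 3.86e-06), with 10 of 12 verapamil libraries below every control, but at 0.06 after the correction (edgeR adjusted p = 0.573). Its call was held with covariates (-0.23, edgeR adjusted p = 0.00233) and with summed counts (-0.35, edgeR adjusted p = 0.00795). Slc25a13 (citrin; chr6:6041218-6217173) ran from 6.03 to 9.40 CPM (median 7.13) and from 3.75 to 6.52 CPM (median 5.23), with 9 of 12 below every control. It was lower by -0.47 ± 0.09 (edgeR adjusted p = 1.29e-04), and it kept its call after the correction (-0.28, edgeR adjusted p = 0.0192) and with covariates (-0.39, edgeR adjusted p = 0.0139). The log2 ratio of Slc25a12 to Slc25a13 differed by 0.11 (permutation p = 0.164). Slc25a12 shares a near-identical stretch with Adpgk.

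In the same group, Slc25a22 (chr7:141429744-141437892), a glutamate carrier, ran from 66.3 to 76.6 CPM in control (median 70.6) and from 75.6 to 112 CPM in verapamil (median 87.2). It was higher by 0.31 ± 0.06 (edgeR adjusted p = 4.37e-05), and in 10 verapamil libraries it exceeded all controls. Slc25a44 (chr3:88410498-88425139), a carrier of branched-chain amino acids, ran from 7.33 to 11.7 CPM (median 9.09) and from 8.25 to 13.7 CPM (median 12.2), a log2 difference of 0.35 ± 0.08 (edgeR adjusted p = 6.83e-04). Both kept their calls after the correction and with covariates. Slc25a15, the ornithine carrier of the urea cycle, had medians of 3.39 and 3.18 CPM and was not called (log2 0.08 ± 0.11, edgeR adjusted p = 0.508).

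Cofactor and acyl carriers numbered 7, and 6 of them were not called. Slc25a39 (chr11:102402985-102407946), which imports glutathione, was the exception. It ran from 59.8 to 66.9 CPM in control (median 64.8) and from 63.2 to 118 CPM in verapamil (median 80.4), higher by 0.33 ± 0.08 (edgeR adjusted p = 0.00126) and at -0.05 with covariates (edgeR adjusted p = 0.34). Slc25a20 (chr9:108662088-108684641), the carnitine/acylcarnitine carrier that brings fatty acids in for oxidation, ran from 40.5 to 62.9 CPM (median 52.6) and from 39.8 to 68.9 CPM (median 53.0). The groups overlapped almost wholly, and its log2 difference was 0.00 ± 0.10 (edgeR adjusted p = 0.999), though covariates gave -0.36 (edgeR adjusted p = 0.00337). Slc25a51, the NAD carrier of mammalian mitochondria, ran from 2.19 to 3.54 CPM (median 3.08) and from 1.21 to 3.74 CPM (median 2.16), and missed the threshold (log2 -0.33 ± 0.15, edgeR adjusted p = 0.0515). Among the others, the coenzyme A carrier Slc25a42 was at 0.12 ± 0.07, the folate and FAD carrier Slc25a32 at 0.01 ± 0.08 and the peroxisomal carrier Slc25a17 at -0.07 ± 0.08 on the log2 scale, with edgeR adjusted p between 0.121 and 0.915. Slc25a32, with 41.2% GC and 5905 bases, was at 0.81 after the correction (edgeR adjusted p = 5.3e-05) and at 0.16 with covariates (edgeR adjusted p = 0.247).

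Mitoferrins bring iron into the matrix for heme and iron-sulfur cluster synthesis, and both were higher. Slc25a28 (mitoferrin 2), the form of most tissues, ran from 91.3 to 104 CPM in control (median 97.6) and from 104 to 156 CPM in verapamil (median 121), and every verapamil library exceeded every control. The log2 difference was 0.32 ± 0.06 (edgeR adjusted p = 4.46e-05), and -0.00 after the correction (edgeR adjusted p = 0.987). Slc25a37 (mitoferrin 1; chr14:69241848-69285112), the erythroid form, was low, from 2.01 to 3.03 CPM (median 2.43) and from 1.32 to 5.03 CPM (median 3.94). In verapamil 8 libraries lay above every control and 1 lay below, and the log2 difference was 0.51 ± 0.15 (edgeR adjusted p = 0.00672), 0.62 after the correction and 0.97 with covariates. Its call was not held when libraries of a set were treated as correlated (limma adjusted p = 0.0826). The log2 ratio of Slc25a28 to Slc25a37 differed by -0.12 (permutation p = 0.589), and by -0.58 after the correction.

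Among the outer membrane members, Mtch1 and Mtch2, which insert tail-anchored and other helical proteins into that membrane, were higher, and Slc25a46, which takes part in mitochondrial fission, cristae shape and lipid transfer, was lower. Mtch2 (chr2:90847155-90866810) ran from 429 to 493 CPM in control (median 451) and from 486 to 614 CPM in verapamil (median 526), a log2 difference of 0.23 ± 0.04 (edgeR adjusted p = 2.33e-05). Mtch1 (chr17:29332072-29347934) ran from 252 to 293 CPM (median 274) and from 243 to 434 CPM (median 346), a log2 difference of 0.30 ± 0.08 (edgeR adjusted p = 0.00268) that was -0.09 with covariates (edgeR adjusted p = 0.1). Within libraries the log2 ratio of Mtch1 to Mtch2 differed by 0.05 (permutation p = 0.508), but by -0.43 after the correction (permutation p = 2e-05). The pseudogene Gm2199 held 5.39% as many counts as Mtch2.

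Slc25a46 differed between experiment sets. In control its libraries ran from 32.5 to 48.5 CPM (median 40.6), and in verapamil from 8.50 to 39.9 CPM (median 24.0). In verapamil set 1 the libraries ran from 37.1 to 39.9 CPM and in set 4 from 26.8 to 38.3 CPM, whereas set 2 ran from 9.83 to 16 CPM and set 3 from 8.50 to 21.2 CPM. The log2 difference was -0.68 ± 0.22 (edgeR adjusted p = 0.0104), made up of -0.04, -1.68, -1.45 and -0.27 in sets 1 to 4. Its transcript has 40.7% GC and 4371 bases, and the verapamil libraries of sets 2 and 3 were those with the strongest correlation with GC content (r = 0.526 to 0.595 and 0.492 to 0.648, beside 0.0717 to 0.316 in set 1 and 0.0382 to 0.377 in set 4). The call was not held after the correction (-0.13, edgeR adjusted p = 0.283), with covariates (0.09, edgeR adjusted p = 0.558) or by the summed counts (edgeR adjusted p = 0.129).

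The members without a settled substrate were all lower. Slc25a53 (chrX:136981116-137038302) ran from 39.6 to 48.4 CPM in control (median 43.3) and from 23.3 to 34.1 CPM in verapamil (median 29.2). It was the only member for which every verapamil library fell below every control, as did 5.18% of all genes. It stood at 0.654 of the control level (log2 -0.61 ± 0.06, edgeR adjusted p = 4.56e-09), with -0.21 after the correction (edgeR adjusted p = 0.0106) and -0.44 with covariates (edgeR adjusted p = 3.56e-07). Slc25a16 (chr10:62920633-62946498) ran from 11 to 18.1 CPM (median 12.7) and from 6.09 to 12.8 CPM (median 9.12), lower by -0.46 ± 0.11 (edgeR adjusted p = 0.00117) and at -0.02 after the correction (edgeR adjusted p = 0.853). Slc25a35 (chr11:68968131-68974365) ran from 3.13 to 4.89 CPM (median 4.62) and from 2.38 to 4.64 CPM (median 3.14). It was lower by -0.45 ± 0.09 (edgeR adjusted p = 1.53e-04), and by -0.66 after the correction (edgeR adjusted p = 5.93e-07), but its exons share 1151 bases with Rangrf on the opposite strand.

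Across experiment sets, all 17 higher members lay above 0 and all 10 lower members below 0 in each of the 4 sets, while 9 of the 37 had sets in both directions. The calls came from the same libraries, so the agreement in sign is in part built in. Its share among all called genes was not computed. The interaction of set and treatment was called for 1 member, Slc25a46 (edgeR adjusted p = 0.0067), beside 9.72% of all genes, and 6 members had an unadjusted p under 0.05. This count rested on 1 library. Without the verapamil library in column V11, which had the strongest length correlation (r = -0.605), the interaction was called for 11 members, beside 32.9% of all genes, among them Slc25a46, Slc25a28, Slc25a3, Slc25a5 and Mtch1. After the correction it was called for Mpc1 only (edgeR adjusted p = 0.0175), beside 7.31% of all genes, and Slc25a46 was at an edgeR adjusted p of 0.0573. In sets 1 and 4 alone, where the correlation with GC content was weaker, 8 members were higher and 5 were lower, beside 1652 and 1482 of all genes tested.

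**Figure D5:**
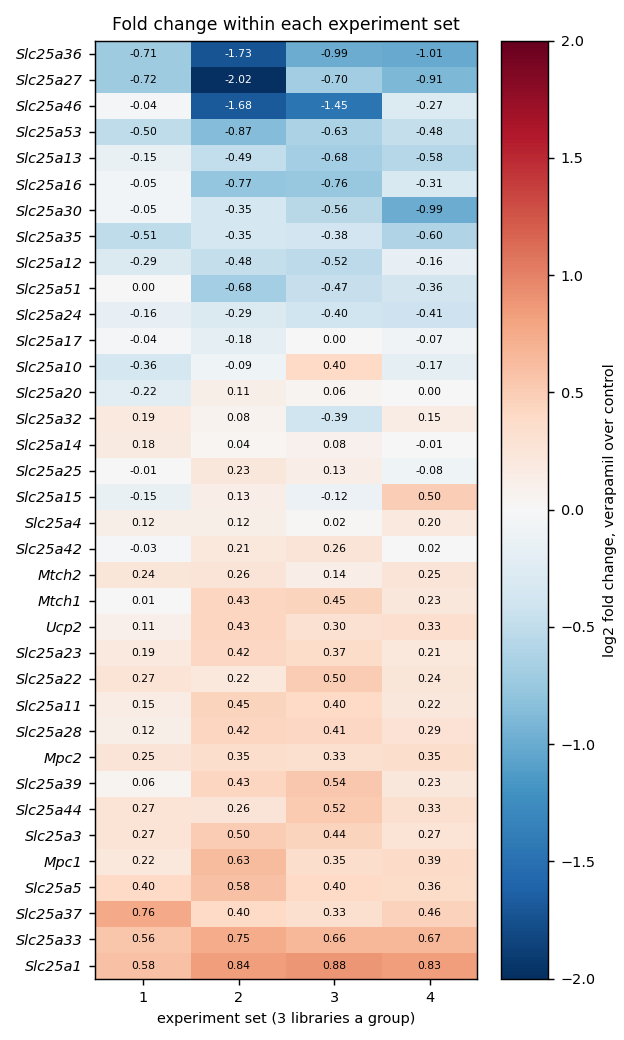
Log2 fold change of 36 carrier transcripts within each experiment set (columns; 3 libraries a group), ordered by the fold change over all libraries; red is higher and blue lower in verapamil, on a scale from -2 to 2. Slc25a46 stands at -0.04 in set 1 and at -1.68 in set 2, whereas Slc25a1 ranges from 0.58 to 0.88.

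Genes that act with the carriers were counted from fixed lists, to be read against the 31.2% higher and 31.6% lower of all genes, or 28.0% and 28.6% after the correction and 21.2% and 14.2% with covariates. Of 15 genes for the import of carriers, which pass the TOM complex, small Tim chaperones and the TIM22 complex, 14 were in the table, and 10 were higher, 1 was lower and 3 were not called, with a median log2 difference of 0.33. After the correction 10 were higher and 0 lower, and with covariates 3 and 0. The small Tim chaperones Timm8a1 (0.80 ± 0.10), Timm10 (0.66 ± 0.09) and Timm13 (0.55 ± 0.10) and the insertase subunit Timm22 (0.53 ± 0.08) were higher, with edgeR adjusted p from 3.71e-07 to 3.14e-05. Tomm70a, the receptor that recognizes carrier precursors, was lower (-0.49 ± 0.13, edgeR adjusted p = 0.00184), but higher after the correction (0.26, edgeR adjusted p = 5.24e-04) and not called with covariates (0.02, edgeR adjusted p = 0.819) or summed counts (edgeR adjusted p = 0.0669). With covariates Timm13 was not called (0.12, edgeR adjusted p = 0.132).

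Of 17 enzymes of the NADH shuttles and of metabolites that the carriers exchange, 10 were higher, 3 were lower and 4 were not called, with a median of 0.16. After the correction 8 were higher and 2 lower, and with covariates 4 and 4. The transaminases of the malate-aspartate shuttle were higher, cytosolic Got1 by 0.72 ± 0.06 (edgeR adjusted p = 6.67e-10) and mitochondrial Got2 by 0.37 ± 0.06 (edgeR adjusted p = 3.06e-05), and so was Mdh2 by 0.34 ± 0.07 (edgeR adjusted p = 4.23e-04). Gpd2, the mitochondrial enzyme of the glycerophosphate shuttle, was lower by -0.57 ± 0.15 (edgeR adjusted p = 0.00266). After the correction Mdh2 was at 0.02 (edgeR adjusted p = 0.557) and Gpd2 at -0.18 (edgeR adjusted p = 0.341), and with covariates Mdh2 was at -0.02 (edgeR adjusted p = 0.62) and Gpd2 at -0.31 (edgeR adjusted p = 0.0932). Gpd2 was also not called with summed counts (edgeR adjusted p = 0.0734).

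Other transporters of the inner membrane showed no common direction: of 10 listed, 8 were in the table, with 2 higher, 3 lower and 3 not called. After the correction 2 were higher and 4 lower, and with covariates 2 and 2. Sfxn3 (0.57 ± 0.10), of the sideroflexin family of serine transporters, and Abcb6 (0.43 ± 0.07), a porphyrin transporter, were higher, and Sfxn5 (-0.34 ± 0.11) was lower, though not with summed counts (edgeR adjusted p = 0.0905). Of 16 ATP synthase genes, 13 were in the table, and 7 were higher, none was lower and 6 were not called, with a median of 0.24. This split did not hold after the correction, with 2 higher and 3 lower, or with covariates, with 3 and 2. The c-subunit genes Atp5g1 (0.91 ± 0.09, edgeR adjusted p = 1.72e-08) and Atp5g3 (0.60 ± 0.09, edgeR adjusted p = 4.85e-06) led, followed by Atp5k (0.56 ± 0.09) and Atp5e (0.45 ± 0.10). After the correction Atp5k was at 0.04 (edgeR adjusted p = 0.261) and Atp5e at -0.06 (edgeR adjusted p = 0.0756), and with covariates Atp5e was at -0.06 (edgeR adjusted p = 0.297).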

How the data were processed

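The counts deposited by the authors are unnormalized reads for each gene and library, made, according to the methods and the submitters' processing notes, with bcl2fastq 2.20, Trimmomatic 0.39, HISAT2 2.1.0 (GRCm38, mm10) and HTSeq 0.9.1. No source used here gives the strand option or the gene models of the counting, so members that overlap a gene of the other strand or have near-identical copies (95% identity over at least 200 bases) are uncertain. Apart from Ucp2 and Slc25a35, exons of Mpc1, Slc25a10, Slc25a11, Slc25a23, Slc25a25, Slc25a33, Slc25a37 and Slc25a46 overlap exons on the other strand. The methods and the labels name different kits. Columns of the authors' own comparison (a fold ratio, log2 values, p-values and a log10 score) were deposited beside the counts and not used.

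Counts were tested with edgeR 4.0.16 in R 4.3.3 (filterByExpr with a minimum count of 10 and total of 15, TMM, quasi-likelihood fit without covariates, all 24 libraries, adjustment over 12306 genes), tested on simulated counts. The SE was obtained as |log2 fold change| over the square root of F. Per-kb levels, GC content and length use 1 transcript per gene (APPRIS principal, else the longest coding one) of GENCODE M21. Ratios used counts with a prior of 0.5, and those after the correction or with summed counts used CPM without a prior. limma 3.58.1, DESeq2 1.42.0 and scipy 1.17.1 gave alternatives and permutation tests. For any 2 libraries of a group, chi-square over its degrees of freedom was at least 5.72, so none was counted as a duplicate.

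Members, gene lists and alternatives were chosen with earlier results of these data known. Members were named by role, except results that are not reported here; full values went to the 8 highest and 8 lowest called members that averaged 1 CPM or more and had 1 direction in all 4 sets, and to a fixed list of members, and of each pathway list up to 4 called genes with the largest changes. Tomm70a, the promoters printed and the interaction calls named were picked after values were seen.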

Additional observations from a re-analysis of the deposited data

Results flagged for a closer look

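The treatment effect on Slc25a46 differed between experiment sets (edgeR interaction test, adjusted p = 0.0067), with log2 differences of -0.04, -1.68, -1.45 and -0.27 in sets 1 to 4, and after the GC and length correction this test gave an edgeR adjusted p of 0.0573. Of the pathway genes, Gpd2 did so with an edgeR adjusted p of 0.019 (-0.33, -1.25, -1.02 and 0.06). Tomm70a did so with an edgeR adjusted p of 0.029 (-0.13, -0.86, -0.96 and -0.23). In these 3 genes sets 2 and 3, whose verapamil libraries had the strongest correlation with GC content, showed the lowest values, and the part of that correlation in the differences was not tested.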

How the results depend on the processing

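The counts of 17 higher and 10 lower members stayed within 1.5 times under RLE or upper quartile normalization, DESeq2, no filter or a filter at a mean of 1 CPM, an experiment set block, summed counts, a limma fit with correlated sets, and without any 1 set or the library in column V11. The correction left 12 higher and 6 lower, covariates left 9 and 6, and sets 1 and 4 alone left 8 and 5. With 3 libraries a group there were 9 and 4 within set 1, beside 1681 and 1721 of the 12306 genes tested. Within set 2 there were 15 and 7, beside 3233 and 3802 of all genes. Within set 3 there were 12 and 6, beside 2450 and 2882 of all genes. Within set 4 there were 0 and 0, where 39 and 11 of all genes were called. The interaction count went from 1 to 11 without V11, an alternative chosen after seeing the data, as was adding pseudogene counts, which moved no call.

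Title numbers 1 to 10 occur in both groups, but the labels do not say that they pair libraries. Correlations of deviations from the group means for the 10 pairs ran from -0.051 to 0.114, 2 of 10 were over 0.1, and 0 of 10 correlated best with their own number. The trend with GC content and length was left in these deviations, so the check cannot decide whether the numbers pair libraries. With a replicate block 17 members were higher and 9 lower, with Slc25a20 at -0.033 and Slc25a32 at -0.0022. With the replicate block and the correction together 12 were higher and 5 lower, and the direction turned for Mpc2 (-0.056), Slc25a4 (-0.093), Slc25a16 (0.0015), Slc25a17 (0.17), Slc25a20 (-0.16), Slc25a24 (0.33, edgeR adjusted p = 0.00988), Slc25a25 (-0.060), Slc25a30 (0.040), Slc25a42 (-0.024), Atp5e (-0.050) and Tomm70a (0.22).

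Among ratios, the correction gave 0.33 for Slc25a12 to Slc25a13, -0.58 for Slc25a28 to Slc25a37 and 0.53 for Mpc1 to Mpc2, all past the threshold, and turned Slc25a23 to Slc25a24 (-0.036) and Mtch1 to Mtch2 (-0.43). With summed counts Slc25a4 to Slc25a5 (-0.32), Slc25a33 to Slc25a36 (1.75) and Slc25a23 to Slc25a24 (0.60) had an adjusted exact permutation p of 0.0667, since 4 against 4 allows no smaller p than 0.0286.

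Of single genes, the correction turned Mpc2 (-0.016), Slc25a4 (-0.068), Slc25a12 (0.058), Slc25a17 (0.15), Slc25a20 (-0.14), Slc25a24 (0.25), Slc25a25 (-0.069), Slc25a28 (-0.00073), Slc25a42 (-0.030), Atp5e (-0.065) and Tomm70a (0.26). Covariates turned Mtch1 (-0.088), Slc25a20 (-0.36), Slc25a25 (-0.081), Slc25a39 (-0.054), Slc25a42 (-0.020), Slc25a46 (0.089), Slc25a51 (0.0087), Atp5e (-0.055), Mdh2 (-0.022) and Tomm70a (0.017). Among experiment sets, directions turned within set 1 for Slc25a15 (-0.15), Slc25a20 (-0.22), Slc25a25 (-0.0099), Slc25a42 (-0.034) and Slc25a51 (0.0032). Within set 3 they turned for Slc25a10 (0.40), Slc25a15 (-0.12), Slc25a17 (0.0039) and Slc25a32 (-0.39), and within set 4 for Slc25a14 (-0.012), Slc25a25 (-0.084) and Gpd2 (0.058). In sets 1 and 4 alone Slc25a20 (-0.10), Slc25a25 (-0.043) and Slc25a42 (-0.0064) turned. Without set 1, Slc25a10 (0.051) and Slc25a32 (-0.047) turned, without set 2 Slc25a20 (-0.046) and Slc25a32 (-0.019), without set 3 Slc25a20 (-0.024), and without set 4 Slc25a15 (-0.040) and Slc25a32 (-0.038). Slc25a20, whose difference over all libraries was 0.00, also turned with the 1 CPM filter (-0.0039), the experiment set block (-0.0090), the limma fit (-0.014) and without V11 (-0.044), and Slc25a10 with upper quartile normalization (0.020). The causes were not tested.

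Slc25a30, the rarest member, with 7 to 42 counts per verapamil library, kept its call under 6 of 22 alternatives.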
